A study of Bos taurus with 20 samples.

Results

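The miR-28, miR-151 and miR-708 family was followed in spermatozoa of high (HF) and low (LF) fertility bulls through its rows in the deposited miRNA table, which were bta-miR-28, bta-miR-708, bta-miR-151-5p and bta-miR-151-3p. All 4 members were found among the 1029 miRNAs listed. Each of 20 Holstein-Friesian bulls (10 HF, 10 LF) gave a single library from frozen-thawed semen, and the study compared the groups to look for miRNAs that differ with field fertility. Bulls had been ranked by an adjusted fertility score, so that HF and LF are selected bulls of an AI population rather than treated animals. All bulls shared the breed, and all pools of ejaculates passed a lysis step against somatic cells before RNA was extracted with TRIzol. Values are averages over several ejaculates of a bull.

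A miRNA hairpin is cut into a duplex, of which the 5p or the 3p arm is kept in the silencing complex and pairs through its seed with target mRNAs. The hairpins of miR-28, miR-151 and miR-708 are grouped in one family in miRBase, and in mammals the 5p arms of miR-28 and miR-708 share their seed while the arms of miR-151 have seeds of their own. The hairpins of miR-28 and miR-151 are known to derive from LINE-2 repeats. In the RefSeq annotation of ARS-UCD2.0, MIR28 lies within LPP, which encodes an adhesion protein, MIR151 within PTK2, which encodes focal adhesion kinase, and MIR708 within TENM4, which encodes a teneurin. miR-151 is known for promoting cell migration, and miR-28 for restraining the growth of B cells.

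An HF library held between 103204 and 3097581 reads on miRNAs (median 1092881), and an LF library between 310186 and 1640178 (median 1085742). Values are normalized read counts, namely reads after scaling to library size and TMM, and intervals or floors from reads cover counting error only. A floor of 3 reads corresponded to 1.19 normalized counts at the greatest depth and to 27.6 at the lowest, in HF replicate 17. The libraries carried the miRNAs of spermatogenic cells, with miR-34b, miR-34c and the 3 members of the miR-449 family looked at making up 4.58% of the counts on average. Epithelial markers, of which bta-miR-375 made up 48.3%, summed to between 17050 and 27773 normalized counts. Blood cell markers summed to between 51.2 and 301 and striated muscle markers to between 17.1 and 145. At least some reads of every listed marker were present in some library. By RT-PCR of marker genes, the paper detected no RNA of leukocytes, epithelial cells or germ cells in its sperm samples.

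Among the 4 rows of the family, nearly all counts came from a single arm. bta-miR-28 and bta-miR-708 each entered as a single row with no arm named. The shares are therefore of these rows and not of all arms of the hairpins. Together the 4 rows made up 0.522% ± 0.0641 (SD, n = 20 bulls) of the miRNA counts, and 90.9% ± 2.99 (SD, n = 20) of that was bta-miR-151-3p. bta-miR-151-5p followed with 7.27% ± 2.35 (SD, n = 20) and bta-miR-28 with 1.80% ± 0.773 (SD, n = 20). By mean normalized count over the 20 bulls, bta-miR-151-3p ranked 30 of 1029 miRNAs, bta-miR-151-5p 97, bta-miR-28 163 and bta-miR-708 530. This order held in each of the 20 libraries. bta-miR-151-3p exceeded bta-miR-151-5p by a mean log2 ratio of 3.72 ± 0.55 (SD, n = 20), and bta-miR-151-5p exceeded bta-miR-28 by 2.06 ± 0.52 (SD, n = 20). Both ratios were beyond the spread between bulls (two-sided sign-flip permutation test, adjusted p = 2e-05 over 3 neighbors, the smallest that these resamples can give). The order was itself taken from these libraries, so the test is no separate support for it. A ratio between miRNAs compares reads, since the efficiency with which each sequence enters a library was not measured.

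**Figure D1:**
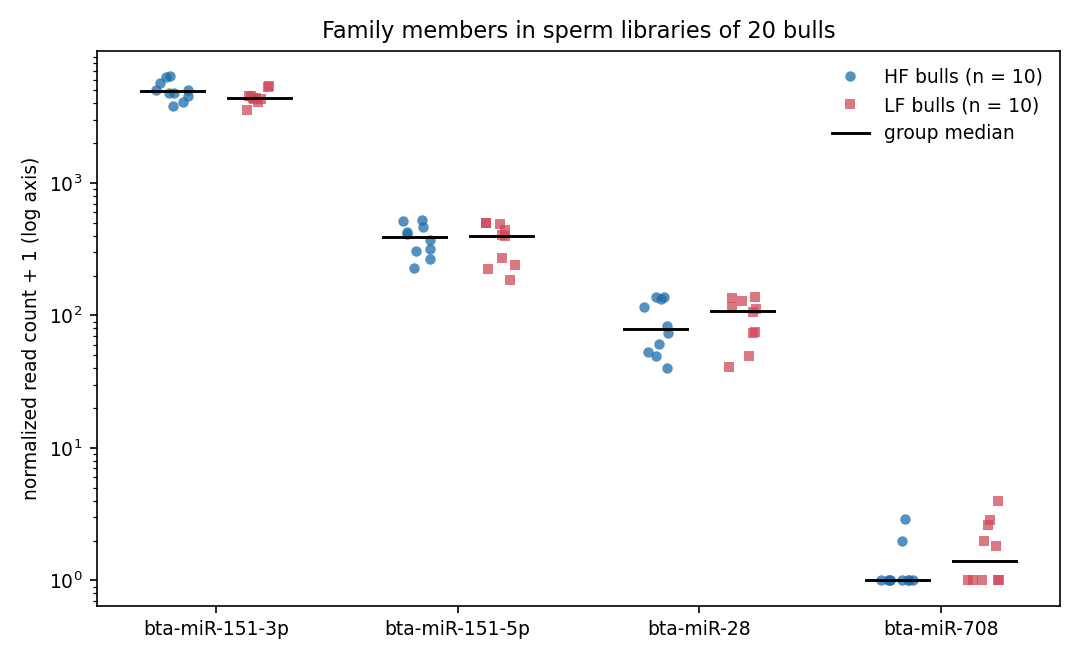
Normalized read count + 1 (log axis) of the 4 family members in each library, with circles for the 10 HF bulls, squares for the 10 LF bulls and a bar at each group median. bta-miR-151-3p lies between 3557 and 6427 in every bull, bta-miR-708 at 0 in 13 of 20, and the HF and LF points of each member overlap.

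bta-miR-151-3p, the dominant arm, had normalized counts from 3819 to 6427 with a median of 4921 in HF bulls. In LF bulls it ran from 3557 to 5432 with a median of 4368. HF replicates 12 and 10 were the highest of all bulls and LF replicate 13 the lowest, and the ranges of the groups overlapped. These values rested on 550 to 12471 reads per library. The whole range over 20 bulls was 1.81-fold, on a mean of 4762 ± 760.0 (SD, n = 20).

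bta-miR-151-5p, the other arm of the same hairpin, ran from 228 to 522 with a median of 393 in HF bulls and from 184 to 498 with a median of 400.4 in LF bulls. LF replicate 7 was the lowest and HF replicate 12 the highest of all bulls, and the medians of the groups were close to each other. It was counted with 29 to 1160 reads per library. The range over the 20 bulls was 2.85-fold.

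bta-miR-28 ran from 38.9 to 136 with a median of 77.9 in HF bulls, and from 40.2 to 138 with a median of 108 in LF bulls. HF replicate 10 was the lowest and LF replicate 13 the highest of all bulls, and each group had bulls near both ends of the range. The libraries held 9 to 332 reads of it, so that it was counted in all 20 bulls, with few reads in the shallowest library. The range over the 20 bulls was 3.54-fold.

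bta-miR-708, which in mammals shares its seed with miR-28-5p, was at the edge of detection. It was listed at 0 in 13 of the 20 libraries. Among HF bulls, replicate 9 had a normalized count of 1.93 and replicate 15 of 1.00, each from 1 read. Among LF bulls, replicate 5 had 2.98 from 5 reads, replicate 13 had 1.84 from 1 read, replicate 8 had 1.60 from 2 reads, replicate 4 had 0.991 from 1 read and replicate 19 had 0.814 from 1 read. Over all libraries 12 reads of bta-miR-708 were counted beside 2218 of bta-miR-28. In the 13 libraries with no read of bta-miR-708, bta-miR-28 was at least 3.0-fold to at least 111-fold higher than a floor of 3 reads per library, with a median bound of 21.3-fold.

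The members also differed in how much they varied between bulls. The SD over the 20 bulls of log2(normalized count + 1) was 0.22 for bta-miR-151-3p, which placed it 5th lowest of the 435 miRNAs that passed the filter on low counts (median SD 0.70). Among the 22 miRNAs with a mean within 2-fold of its own, it had the lowest SD (median of these 0.41). For bta-miR-151-5p the SD was 0.47, near the median of 0.46 of the 48 miRNAs of like level, and for bta-miR-28 it was 0.63 beside a median of 0.53 of 79 miRNAs of like level. For scale, the SD from counting reads alone, which leaves out library preparation and the bulls themselves, would be 0.026 for bta-miR-151-3p, 0.10 for bta-miR-151-5p and 0.21 for bta-miR-28. The SD of a member against those of other miRNAs is a description and was not tested.

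**Figure D2:**
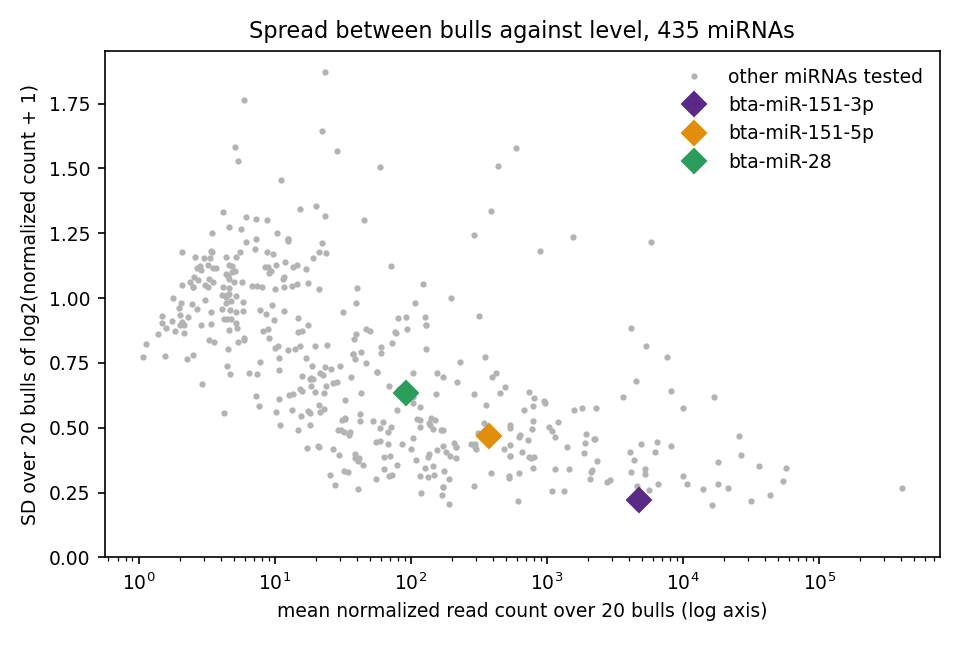
SD over the 20 bulls of log2(normalized count + 1) against the mean normalized count (log axis) for each of the 435 miRNAs tested, with the 3 members that passed the filter as diamonds. bta-miR-151-3p sits at the lower edge with an SD of 0.22, while bta-miR-151-5p (0.47) and bta-miR-28 (0.63) lie among miRNAs of like level.

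Of the reads of the miR-151 hairpin, 92.6% ± 2.45 (SD, n = 20 bulls) were from the 3p arm, with 92.8% ± 2.10 (SD, n = 10) for HF bulls against 92.3% ± 2.85 (SD, n = 10) for LF bulls. The share was lowest in LF replicate 13 at 87.7% and highest in LF replicate 7 at 96.7%. In folds, the 3p arm was 7.13 times the 5p arm in the former and 29.4 times in the latter. The log2 ratio of the arms averaged 3.75 ± 0.47 (SD, n = 10) for HF bulls against 3.69 ± 0.64 (SD, n = 10) for LF bulls. The difference of 0.058 (95% interval -0.47 to 0.59) was smaller than the SD of either group (permutation test, two-sided, p = 0.82, adjusted p = 0.82 over 3 ratios), and its sign changed to -0.055 (permutation test, p = 0.84) when only the 17 libraries with at least 500000 reads were kept. Without HF replicate 6 it was -0.039 (permutation test, p = 0.88) and without LF replicate 13 it was -0.037 (permutation test, p = 0.88).

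Among the 23 hairpins with both a 3p and a 5p row past the filter, the 3p arm was the higher in 8 and the 5p arm in 15. The same arm was the higher in every bull for 19 of them, miR-151 included. With a mean fold of 13.2 between its arms, miR-151 was 12th of the 23 and at their median, and the SD of its log2 arm ratio, 0.55, was the 6th lowest (median 0.89). In some of the 23 the lower arm was near the floor, such as bta-miR-30b-3p with a mean of 2.49 and bta-miR-142-3p with 2.60. Counting error there adds to the SD, so the rank of 0.55 is not one among hairpins of like level. These ranks describe the libraries and were not tested.

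**Figure D3:**
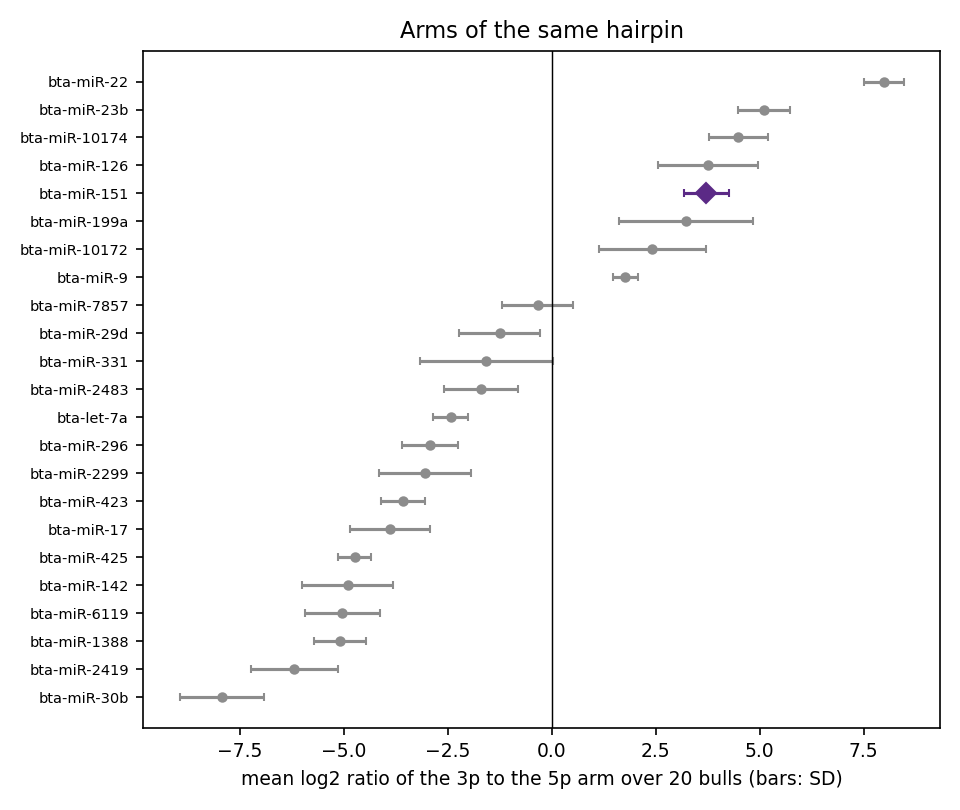
Mean log2 ratio of the 3p to the 5p arm over 20 bulls, with bars for the SD, for the 23 hairpins whose arms both passed the filter, ordered by the ratio. miR-151 (diamond) is at 3.72 ± 0.55, on the side of the 8 hairpins with a higher 3p arm.

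Across bulls, bta-miR-151-5p and bta-miR-28 were high or low together. Over the 20 bulls, Pearson's r between log2(normalized count + 1) of bta-miR-151-5p and bta-miR-28 was 0.58 (permutation p = 0.0072, adjusted p = 0.043) and Spearman's rho was 0.699 (permutation p = 0.00073, adjusted p = 0.0044). Values were adjusted over the 6 pairs of members. Without LF replicates 4 and 7, the 2 bulls farthest from the median of bta-miR-151-5p, r was 0.78 (permutation p = 0.00025). Within groups r was 0.65 (n = 10 HF bulls, permutation p = 0.045) and 0.595 (n = 10 LF bulls, permutation p = 0.0725). LF replicate 13 and HF replicate 12 were among the highest bulls for both miRNAs and LF replicate 11 among the lowest. Mature sequences were not compared, so reads that could be assigned to either miRNA were not looked for.

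For the arms of miR-151, r was -0.17 (permutation p = 0.48) and rho -0.12 (permutation p = 0.599), with an adjusted p of 0.48 for r and 0.599 for rho. Without HF replicates 10 and 12, the 2 bulls farthest from the median of bta-miR-151-3p, r was -0.45 (permutation p = 0.064). LF replicate 13 had the lowest 3p and the highest 5p level of the LF bulls, and LF replicate 7 the highest 3p and the lowest 5p level. bta-miR-151-3p and bta-miR-28 gave r = -0.20 (permutation p = 0.39) and rho = -0.16 (permutation p = 0.50). Pairs with bta-miR-708 had r between -0.43 and 0.31 with adjusted permutation p-values of at least 0.175, on 12 reads in all, and are not read further. All pairs share the libraries and their scaling, and a difference between these correlations was not tested.

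**Figure D4:**
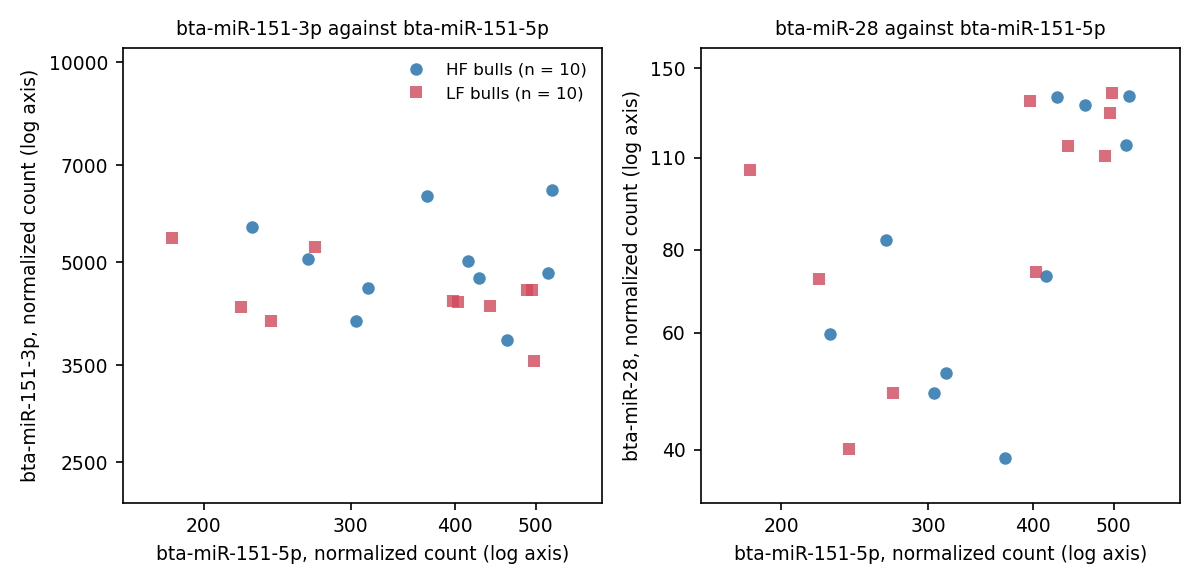
Normalized counts (log axes) of bta-miR-151-3p (left) and bta-miR-28 (right) against bta-miR-151-5p, with circles for 10 HF and squares for 10 LF bulls. The arms of miR-151 show no joint rise (r = -0.17), whereas bta-miR-28 is higher in bulls with more bta-miR-151-5p (r = 0.58).

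Both bta-miR-28 and bta-miR-151-5p varied along the leading axis of other miRNAs. The leading axis of variation was taken over the 158 miRNAs outside the family with a mean normalized count of at least 100, and it held 31.1% of their variance on the log2 scale. How many of the 158 follow it as closely was not counted. The sign of the axis, which is arbitrary, was set to give bta-miR-151-5p a positive r. The mean of the axis did not separate HF from LF bulls beyond their spread (two-sided permutation test, p = 0.95), and LF replicate 11 lay farthest out on it. bta-miR-151-5p followed this axis with r = 0.797 (permutation p = 2e-05) and rho = 0.81 (permutation p = 5e-05). bta-miR-28 followed it with r = 0.73 (permutation p = 0.00030) and rho = 0.73 (permutation p = 0.00034). For bta-miR-151-3p r was -0.10 (permutation p = 0.67) and rho -0.13 (permutation p = 0.58). Without LF replicate 11 and HF replicate 17, the bulls farthest out on the axis, r was 0.80 (permutation p = 6e-05) for bta-miR-151-5p, 0.73 (permutation p = 0.0011) for bta-miR-28 and -0.26 (permutation p = 0.295) for bta-miR-151-3p. These were also the libraries with the fewest reads, 310186 in LF replicate 11 and 103204 in HF replicate 17. LF replicate 13, the next shallowest with 438649 reads, lay near the other end of the axis at 0.27. A relation of the axis with depth was not tested.

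Blood cell and sperm marker miRNAs moved with the same members. The summed blood cell markers, of which bta-miR-142-5p made up 68.1%, gave r = 0.85 (permutation p = 2e-05) and rho = 0.87 (permutation p = 3e-05) with bta-miR-151-5p and r = 0.68 (permutation p = 0.0012) and rho = 0.73 (permutation p = 0.00037) with bta-miR-28. Without the 2 bulls farthest out on this sum, HF replicate 15 and LF replicate 5, r was 0.901 (permutation p = 2e-05) and 0.66 (permutation p = 0.0035). The summed markers of spermatogenic cells, mostly bta-miR-34c, gave r = 0.66 (permutation p = 0.0014) and rho = 0.69 (permutation p = 0.0013) with bta-miR-151-5p and r = 0.73 (permutation p = 0.00017) and rho = 0.74 (permutation p = 0.00034) with bta-miR-28. Without HF replicate 2 and LF replicate 11, the 2 farthest bulls on that sum, r was 0.65 (permutation p = 0.0040) and 0.68 (permutation p = 0.0022). All 6 relations with the axis and these sums for these members had an adjusted p under 0.05 for r over the 18 relations computed, and none of the other 12 did. The summed blood markers lay between 65.9 and 239 in HF and between 51.2 and 301 in LF bulls, whereas epithelial markers, at 17050 to 24348 in HF and 17693 to 27773 in LF bulls, gave r between -0.10 and 0.15 with the 3 members (permutation p of 0.515 or more). In the 17 libraries with at least 500000 reads, r with the epithelial markers was -0.41 (permutation p = 0.10) for bta-miR-151-5p. It was 0.043 (permutation p = 0.87) for bta-miR-28 and 0.050 (permutation p = 0.85) for bta-miR-151-3p. The part of these cell types or of depth in the covariation was not tested, and in bulk libraries fewer cells of a type and less RNA per cell cannot be told apart. For depth, r with the log10 of the recovered reads was 0.43 (permutation p = 0.058) and rho 0.47 (permutation p = 0.040) for bta-miR-151-5p, with an adjusted p of 0.149 for r, and without HF replicate 17 and LF replicate 11 r was 0.299 (permutation p = 0.23). In the 17 libraries with at least 500000 reads r was 0.47 (permutation p = 0.055).

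The miRNAs whose level kept the steadiest ratio to each member were found by the SD over 20 bulls of the log2 ratio. For bta-miR-151-3p these were bta-miR-3432a (SD 0.16), bta-miR-425-3p (0.18) and bta-miR-99a-5p (0.19). The ratio of bta-miR-151-3p to its own partner arm had an SD of 0.55 and ranked 138 in the same order. Seen from bta-miR-151-5p, the ratio to bta-miR-28 ranked 67 with an SD of 0.52 and that to bta-miR-151-3p ranked 81 with an SD of 0.55, so that by this measure bta-miR-151-5p was about as steady against both. For bta-miR-151-5p the steadiest were bta-miR-192 (SD 0.25), bta-miR-30c (0.25) and bta-miR-29b (0.28), and for bta-miR-28 they were bta-miR-146b (0.32), bta-miR-30f (0.38) and bta-let-7g (0.38). No miRNA was in more than 1 of these lists.

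Between HF and LF bulls, no difference beyond the spread between bulls was found for bta-miR-151-3p, bta-miR-151-5p or bta-miR-28. A miRNA was called at an unadjusted p under 0.05 and a fold change over 1.5. The paper names these thresholds in its Results but does not say whether p was adjusted. It applied them with edgeR, so the counts called with limma are not like for like. Of the 3 members that passed the filter, 0 were called in the fit with limma, beside 9 of all 435 miRNAs tested (2.07%), of which 4 were higher (0.92%) and 5 lower (1.15%) in HF bulls. The 3 members also had no unadjusted p under 0.05 with limma, edgeR or DESeq2, where limma gave 15 such miRNAs among the 435 (3.45%). After adjustment, 0 of the 435 miRNAs were under 0.05 in limma, where the smallest adjusted p was 0.92. The median log2 fold change of the 3 was 0.11 (HF over LF), beside 0.0051 for all miRNAs tested.

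bta-miR-151-3p averaged 5049 ± 861 (SD, n = 10) among HF bulls against 4474 ± 543 (SD, n = 10) among LF bulls, and the LF median was exceeded by 8 of 10 HF bulls. Its log2 fold change was 0.17 (standard error 0.12, 95% interval -0.076 to 0.41, p = 0.17, adjusted p = 0.94 from limma), so that the interval runs from 0.948-fold to 1.33-fold of the LF level. For bta-miR-151-5p the averages were 383 ± 103 (SD, n = 10) for HF against 364 ± 123 (SD, n = 10) for LF, and 5 of 10 HF bulls exceeded the LF median. The log2 fold change was 0.11 (standard error 0.21, 95% interval -0.33 to 0.54, p = 0.62, adjusted p = 0.96 from limma). bta-miR-28 averaged 87.5 ± 38.9 (SD, n = 10) among HF bulls against 96.6 ± 35.4 (SD, n = 10) among LF bulls, with 6 of 10 HF bulls below the LF median. The fold change on the log2 scale was -0.17 (standard error 0.28, 95% interval -0.74 to 0.40, p = 0.55, adjusted p = 0.96 from limma), and this wider interval does not exclude a 1.5-fold lower level in HF bulls.

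**Figure D5:**
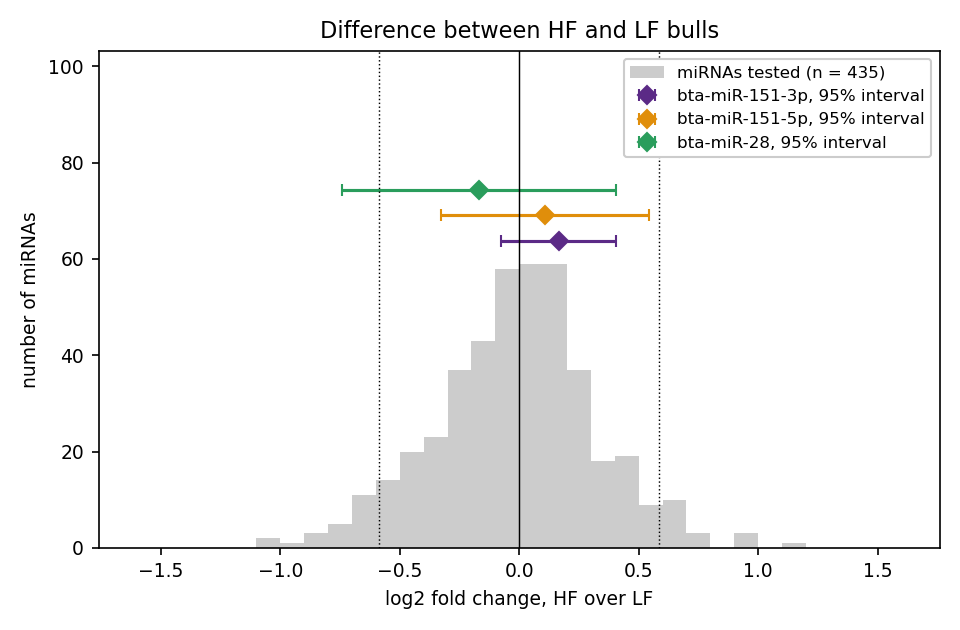
Histogram of the log2 fold change (HF over LF) of the 435 miRNAs tested, with the 3 members that passed the filter as diamonds and their 95% intervals from limma as bars, placed above the histogram for legibility. The dotted lines mark a fold change of 1.5, and each interval includes 0.

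Reads of bta-miR-708 were found in 2 of 10 HF and 5 of 10 LF libraries (two-sided Fisher's exact test, p = 0.35). The groups held 2 reads in 13300088 and 10 reads in 10050509. Both were under the floor of 3 reads per library on average, so no fold change is given, and a difference was not detectable with limma at this depth (p = 0.15, fitted without the filter). On the recovered reads of 19 libraries the unadjusted p was 0.045 in edgeR's quasi-likelihood test, 0.028 in its likelihood ratio test and 0.19 in DESeq2, lower in HF bulls, and 5 of the 10 LF reads came from a single bull, LF replicate 5.

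Between members, the log2 ratio of bta-miR-28 to bta-miR-151-5p averaged -2.20 ± 0.51 (SD, n = 10) for HF bulls against -1.93 ± 0.53 (SD, n = 10) for LF bulls. The difference of -0.28 (95% interval -0.76 to 0.21) was within that spread (two-sided permutation test, p = 0.25, adjusted p = 0.74).

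bta-miR-95, another miRNA from a LINE-2 repeat, was looked at for comparison. It averaged 172 ± 35.6 (SD, n = 10) among HF bulls against 180 ± 46.5 (SD, n = 10) among LF bulls, and its log2 difference was -0.049 (standard error 0.17, 95% interval -0.41 to 0.31, p = 0.78, adjusted p = 0.98 from limma). Its level thus lay between those of bta-miR-28 and bta-miR-151-5p, and its SD over bulls on the log2 scale was 0.33.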

How the data were processed

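Small RNA libraries of spermatozoa from 20 bulls were used, grouped by the labels. The authors removed adapters with Cutadapt, filtered reads by length and against other short RNAs, used Bowtie for alignment to ARS-UCD1.2 plus a Y chromosome and miRDeep2 for counting on miRBase miRNAs. The values they deposited are a signal, namely reads rescaled by library size and TMM, although described as counts. Reads were recovered by dividing each library by its commonest low value, the worth of 1 read, and 95.0% of the values above 0 were whole reads within 0.01. All 4 members had whole reads in every library. HF replicate 6 stayed out of count tests because its smallest value was not a whole read, which left 19 libraries.

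A miRNA was removed when 10 or more libraries had it under 1, which left 435 and removed bta-miR-708. limma 3.58.1 (R 4.3.3, trend) was fitted on log2(normalized count + 1), so that fold changes of rare miRNAs are understated, with Benjamini-Hochberg adjustment over the 435. The fold changes were fitted also with edgeR 4.0.16 and DESeq2 1.42.0 on recovered reads. Permutation tests used 100000 resamples (scipy 1.17.1, numpy 2.4.6). Tests were tested on simulated data. Since 1 library per bull was deposited, p-values measure the spread between libraries of different bulls. In that spread, differences between bulls cannot be told apart from library preparation and counting error. No pair of libraries had identical values.

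The members and lists were chosen with earlier results of these data known. Named were the members, bta-miR-95 and bta-miR-325 (the latter not analysed here), the 3 miRNAs with the steadiest ratio to each member past the filter, and the marker lists. Mature sequences were not used here, so miRNAs with a shared seed or run of bases were not looked up. No such list was made for bta-miR-708. The Fisher test of bta-miR-708, the relations with depth, marker sums and the leading axis, and the correlations without 1 bull were added after seeing the data. RefSeq genes of ARS-UCD2.0 served only for names of overlapping genes.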

Additional observations from a re-analysis of the deposited data

Results flagged for a closer look

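In 14 groups of 10 bulls (4 members and 3 ratios in HF and in LF bulls), the gap of the highest or lowest bull to the nearest other was compared with the range of the group. For normally distributed values, a gap this large appears by chance in about 1 of 20 groups, which gives 0.70 of 14. It was found in 1 group, bta-miR-708 in HF bulls, where HF replicate 9 was at 1.93 and the next bull at 1.00, a gap of 0.48 of the range, from 1 read in each of these libraries. All other HF bulls were at 0, so the rate for normally distributed values does not apply to this group.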

How the results depend on the processing

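The fold changes of bta-miR-28, bta-miR-151-5p and bta-miR-151-3p kept their direction and stayed uncalled in all 8 alternatives and in the 20 fits without 1 bull each. Their log2 fold changes lay between -0.30 and -0.057, between 0.0070 and 0.18 and between 0.12 and 0.21 without 1 bull. For bta-miR-708, with both groups under the floor, a fitted log2 value depends on the prior count or pseudocount and measures no fold change. It was -0.42 in limma, -1.84 in edgeR's quasi-likelihood test (unadjusted p = 0.045) and -1.81 in its likelihood ratio test (unadjusted p = 0.028), and in limma the unadjusted p was 0.043 without HF replicate 9. The number of miRNAs called was 9 in limma, 16 in edgeR's quasi-likelihood test, 17 in its likelihood ratio test, 17 in DESeq2, 4 with a pseudocount of 5 and 15 with no filter. It ranged from 7 to 15 without 1 bull, with 15 without HF replicate 6 and 14 without LF replicate 1, 11 or 13. The cause was not tested. With no TMM factor, the median over all tested miRNAs went from 0.0051 to -0.051 on the log2 scale.

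The HF minus LF difference of the arm ratio of miR-151 reversed to -0.055 in libraries with at least 500000 reads, to -0.039 without HF replicate 6 and to -0.037 without LF replicate 13, with a range of -0.039 to 0.19 without 1 bull. That of bta-miR-28 to bta-miR-708 was 0.25 (permutation test, p = 0.49) and reversed to -0.034 with a pseudocount of 5. Each of these is small beside the spread between bulls, and the cause was not tested. The order of the 4 members held in every alternative. The correlation of bta-miR-28 with bta-miR-151-5p lay between 0.52 and 0.73 with no TMM factor, in libraries with at least 500000 reads and without 1 bull each, with a permutation p of at most 0.034. That of bta-miR-151-3p with bta-miR-708, which rests on 12 reads, was -0.23 (permutation p = 0.32) with no TMM factor. It lay between -0.51 and -0.33 without 1 bull, against -0.43 with all, and had a permutation p under 0.05 in 4 of these 20 (without HF replicate 2 or 14 or LF replicate 11 or 18). bta-miR-708 had at most 5 reads in a library, and bta-miR-28 had 9 in the shallowest; the part of depth in this was not tested. No paired analysis was possible because HF and LF bulls share no replicate numbers.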
